A study of Sus scrofa with 6 samples.

Results

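Chromatin genes were followed during the differentiation of porcine satellite cells (PSCs), the stem cells of skeletal muscle that withdraw from the cell cycle and fuse into myotubes. The genes were 59 named subunits and enzymes of Polycomb, SWI/SNF, histone methylation, histone acetylation and DNA methylation, and a gene was included where its symbol was paired with a pig Ensembl identifier in the expression table. Of the 59 symbols, 47 had a row and 46 passed the minimum of a mean FPKM of 1, out of 28266 rows and 14060 genes tested in all. No row was paired with RBBP4, CBX7, CBX8, CBX3, CBX5, SMARCA2, SMARCD2, PBRM1, KMT2D, SUV39H1, EHMT1 or TET2, and these 12 genes were not analysed here. The row paired with HDAC1 held 10 fragments over the 6 libraries, with FPKM values between 0 and 0.10, and was not tested. Whether this row holds the whole gene was not examined, so its values are not read as the level of HDAC1.

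The PSCs came from the skeletal muscle of 3-day-old male Yorkshire piglets, were transfected with negative control (NC) siRNA and were placed in differentiation medium with horse serum. RNA-seq was analysed in 3 libraries at 24 h (NC24h) and 3 at the later time (NC36h), numbered 4, 5 and 6 in either group. The later time is 36 h in the title of the series and in the paper but 48 h in the sample labels, and the NC siRNA is inferred from the letter N of the sample titles, since the labels name no siRNA. The groups thus differ in hours of differentiation, and nothing in the sources used here says whether the 3 libraries of a group came from separate animals or cultures, so the p-values below measure the spread between these libraries.

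The files gave FPKM, the fragments of a gene per kilobase of its length and per unit of total fragments, and the whole fragments behind the values could be recovered. The libraries held between 16250222 and 16774534 fragments at NC24h and between 17873849 and 21723087 at NC36h. The 7 myoblast markers with a row summed to between 2356 and 4162 FPKM in a library. Most of the sum was DES, with a mean FPKM of 1693 at NC24h and 3182 at NC36h. MYOD1 had a mean of 316 and 254, PAX3 lay between 0.16 and 0.47, and no row was paired with PAX7 or ITGA7. Only 11804 of 25322 Ensembl identifiers had a symbol, so genes without a paired row may still be in the data. The labels' text on extraction names endometrium, but 5 of 6 endometrium and epithelium markers with a row stayed under 1 FPKM in every library, and KRT8 and PGR were listed at 0 in all 6. The exception was CDH1, an adhesion protein, which rose by 1.79 on the log2(FPKM + 1) scale.

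Polycomb complexes keep genes silent: PRC2 methylates histone H3 on a lysine through EZH2 or EZH1, and PRC1 ubiquitinates histone H2A and compacts the nucleosomes. SWI/SNF complexes use ATP to slide and evict nucleosomes and oppose Polycomb, and their subunit SMARCD3, also known as BAF60C, works with MYOD at muscle genes. Histone methyltransferases, demethylases, acetyltransferases and deacetylases write and erase marks on the histone tails, while DNMT1 and UHRF1 copy DNA methylation after replication.

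Between NC24h and NC36h more of the chromatin genes fell than rose. With limma on log2(FPKM + 1) and Benjamini-Hochberg adjustment over all 14060 genes, a gene was called where its adjusted p lay under 0.05. Of the 46 chromatin genes, 28 were called (60.9%), against 50.9% of all genes tested. There were 5 genes that rose (16.5% of all genes rose) and 23 that fell (34.4% of all genes fell). The fold change of mean FPKM of the 23 lay between 0.353 and 0.873. The groups did not overlap in 33 of the 46 genes, 6 higher and 27 lower at NC36h, where 63.6% of all genes tested did not overlap. In bulk RNA, fewer cells that express a gene and less RNA of it per cell cannot be told apart.

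How the libraries are scaled against each other decided many of the smaller falls. The median log2 change of all genes tested was -0.16 on the deposited values and -0.01 after median-ratio scaling, which divides a library by the median of the ratios of its genes to their geometric means over the 6 libraries, and the median of the 46 chromatin genes was -0.23 and -0.06. After median-ratio scaling 19 of the 46 were called, 8 higher and 11 lower, against 46.3% of all genes (23.9% higher and 22.3% lower). All 5 rises were called with both scalings. So were all 2322 genes called higher on the deposited values (16.5% of all genes), so this does not set the 5 apart. Among all genes, 3136 of the 4834 falls were called with both scalings (22.3% of all genes), and of the 23 chromatin falls 11 were. The 5 rises and 10 of the falls were called under every alternative that could be run for them. The share of all genes called in this way is not given here, so the count does not set these genes apart. These genes were KDM6B, DPF3, DOT1L, CBX1 and SMARCD3 among the rises and EZH2, JARID2, RNF2, SMARCB1, SMARCC1, SMARCA5, KMT2A, KMT5A, KDM1A and KAT2A among the falls. Of the 18 genes that were not called, 16 had a 95% interval of the log2 change within 0.5 of 0 on either side.

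**Figure D1:**
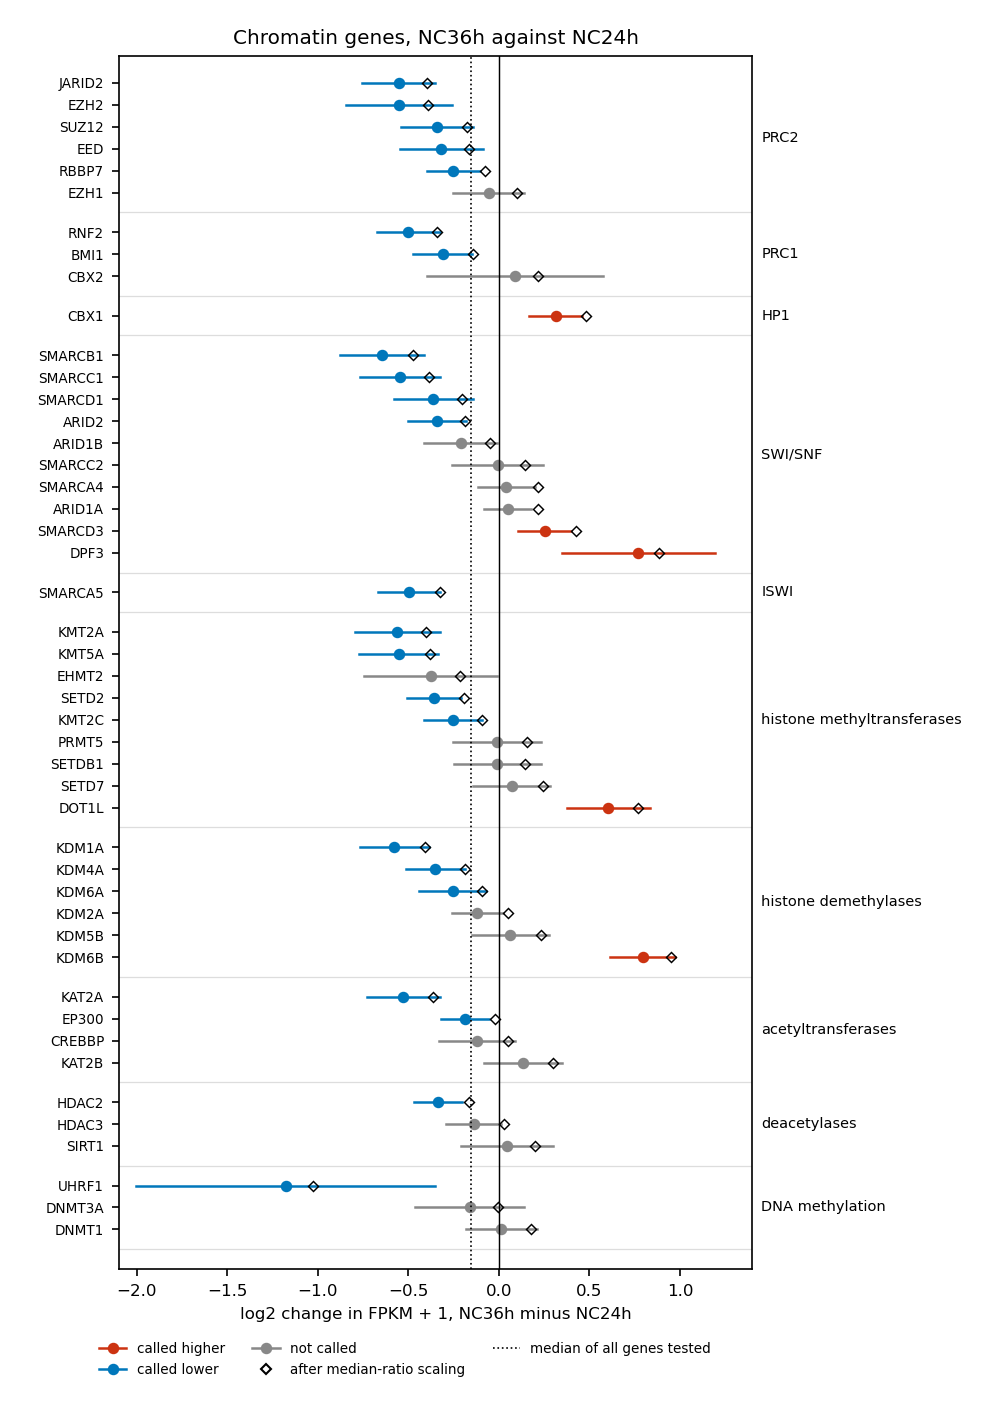
Log2 change in FPKM + 1 at NC36h minus NC24h for the 46 chromatin genes tested, grouped by complex or activity, with 3 libraries per group. Filled circles are the limma estimates on the deposited values with 95% intervals, coloured by call, open diamonds the estimates after median-ratio scaling, and the dotted line is the median of all genes tested (-0.16); every called fall left of the dotted line moves to the right after scaling, and KDM6B, DPF3, DOT1L, CBX1 and SMARCD3 lie right of 0 on both scales.

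The counts by complex that follow stand beside 16.5% of all genes tested that rose and 34.4% that fell. Of the PRC2 genes, 5 of the 6 tested fell and EZH1 was not called. With both scalings 2 of the 6 fell, EZH2 and JARID2, where 22.3% of all genes did. EZH2, the catalytic methyltransferase of dividing cells (chromosome 9, 109384976 to 109450943, Sscrofa11.1), had an FPKM of 9.72, 9.65 and 13.1 at NC24h and of 7.12, 6.92 and 6.98 at NC36h. All 3 early libraries lay above the later ones, and NC24h replicate 6 was the highest. EZH2 fell by 0.55 on the log2 scale (SE 0.12, adjusted p = 0.010), and by 0.39 after median-ratio scaling. JARID2, the accessory subunit that helps bring PRC2 to its targets (chromosome 7, 11358243 to 11601715), had an FPKM of 10.9, 10.7 and 9.32 at NC24h and of 6.84, 6.36 and 6.85 at NC36h. Here replicate 6 was the lowest of the early libraries, and the groups again stood apart. JARID2 fell by 0.55 (SE 0.08, adjusted p = 0.00281).

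The scaffold subunits of PRC2 changed less. SUZ12 fell by 0.34 from a mean FPKM of 15.5 ± 1.39 (SD, n = 3), EED by 0.32 from 8.20 ± 0.53 and the histone-binding subunit RBBP7, with the highest level of the 46 genes at NC24h, by 0.25 from 172 ± 4.04. None of these 3 was called after median-ratio scaling, where they lay at -0.18, -0.17 and -0.08. Leaving out a library also ended the call of SUZ12 (without NC36h replicate 4, adjusted p = 0.051), of RBBP7 (without NC36h replicate 5, 0.0659) and of EED (without NC24h replicate 4 or 5 or NC36h replicate 5 or 6, between 0.0541 and 0.0948). EZH1, the paralogue of EZH2 that prevails in non-dividing cells, had an FPKM of 6.79, 7.76 and 6.97 at NC24h and of 6.99, 7.07 and 6.52 at NC36h. Its groups overlapped, with a log2 change of -0.06 (95% interval -0.25 to 0.14, adjusted p = 0.592).

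The ratio of EZH1 to EZH2 within a library does not depend on how libraries are scaled. It was 0.698, 0.805 and 0.531 at NC24h and 0.981, 1.02 and 0.935 at NC36h. EZH2 thus had the higher level per length in all 3 early libraries, while the 2 genes had nearly the same level in the later ones. The mean log2 ratio was higher by 0.55 at NC36h, and the groups did not overlap (exact permutation test, two-sided, p = 0.1, the smallest that 3 against 3 libraries can give).

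Of the PRC1 genes, RNF2 and BMI1 fell and CBX2 was not called. RNF2, the ubiquitin ligase of histone H2A (chromosome 9, 126172637 to 126284567), had an FPKM of 11.2, 11.4 and 12.5 at NC24h and of 7.84, 7.99 and 8.03 at NC36h. The spread within a group was small beside the gap between the groups, with a log2 change of -0.50 (SE 0.07, adjusted p = 0.00243). BMI1, its partner in the PRC1 core, fell by 0.31 from a mean FPKM of 20.7 ± 1.30 (adjusted p = 0.0101) and was not called after median-ratio scaling (-0.14). For CBX2, a chromodomain reader of the Polycomb mark, the groups overlapped through NC24h replicate 6. Its FPKM was 1.80 and 1.99 in NC24h replicates 4 and 5, 3.70 in replicate 6 and between 2.46 and 2.82 at NC36h. With all libraries its log2 change was 0.09 (adjusted p = 0.740), and without NC24h replicate 6 it was 0.32 and was called (adjusted p = 0.0399). CBX1, an HP1 protein that binds methylated histone H3 in heterochromatin, moved the other way, from a mean FPKM of 26.3 ± 0.19 to 33.0 ± 1.67, a rise of 0.31 (adjusted p = 0.0063).

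Of the 10 SWI/SNF subunits tested, 2 rose, 4 fell and 4 were not called. The ATPase SMARCA4 (BRG1) and the large subunit ARID1A, were among the subunits not called: SMARCA4 had a mean FPKM of 52.4 ± 2.06 and 54.0 ± 3.20, and ARID1A of 34.6 ± 0.50 and 35.8 ± 0.91. Their log2 changes were 0.04 and 0.05 (adjusted p = 0.628 and 0.485), and after median-ratio scaling both were called higher, by 0.21 and 0.22. ARID1B and SMARCC2 were not called under either scaling.

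The falls were in SMARCB1, SMARCC1, SMARCD1 and ARID2. SMARCB1, the SNF5 subunit that anchors the complex to the nucleosome (chromosome 14, 49874981 to 49906043), had an FPKM of 45.0, 51.8 and 58.3 at NC24h and of 31.6, 32.4 and 33.4 at NC36h. The early libraries were spread more widely than the later ones but did not reach them, and SMARCB1 fell by 0.65 (SE 0.10, adjusted p = 0.00271). SMARCC1, a scaffold subunit (chromosome 13, 30409979 to 30576270), had an FPKM of 10.2, 10.8 and 12.5 at NC24h and of 7.36, 6.94 and 7.65 at NC36h. It fell by 0.55 (SE 0.09, adjusted p = 0.00382), while its paralogue SMARCC2 had a mean FPKM of 5.39 ± 0.66 and 5.35 ± 0.44. ARID2, the defining subunit of the PBAF form, fell by 0.34 from a mean FPKM of 8.68 ± 0.02 (adjusted p = 0.00644) and was not called after median-ratio scaling (-0.19).

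The rises were in DPF3 and SMARCD3, which both have known roles in heart and skeletal muscle. DPF3, a reader of histone acetylation (chromosome 7, 95974422 to 96254354), had an FPKM of 1.63, 1.16 and 1.05 at NC24h and of 2.66, 3.79 and 2.30 at NC36h. Its level was the lowest of the 46 genes at NC24h and rested on 37 fragments there and 104 at NC36h, but no early library reached a later one. DPF3 rose by 0.77 on the log2(FPKM + 1) scale (SE 0.18, adjusted p = 0.0115), and its mean FPKM was 2.27-fold higher. SMARCD3 had an FPKM of 117, 125 and 113 at NC24h and of 145, 139 and 139 at NC36h. The groups did not overlap, and the rise was 0.25 (SE 0.06, adjusted p = 0.0139), or 0.43 after median-ratio scaling.

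SMARCD1 (BAF60A), which takes the same place in the complex as SMARCD3, had an FPKM of 8.93, 9.74 and 11.09 at NC24h and of 7.28, 7.45 and 7.66 at NC36h. It fell by 0.36 (SE 0.09, adjusted p = 0.016), a call not made after median-ratio scaling or without NC36h replicate 4 or 5 (adjusted p = 0.0525 and 0.0577). The ratio of SMARCD3 to SMARCD1 was 13.1, 12.8 and 10.2 at NC24h and 19.96, 18.6 and 18.2 at NC36h. SMARCD3 was therefore the more abundant transcript per length in all 6 libraries, and the ratio was higher in every later library (mean log2 difference 0.66, exact permutation p = 0.1, the smallest possible). SMARCA5, the ATPase of the ISWI remodellers that space nucleosomes, fell by 0.49 from a mean FPKM of 56.3 ± 4.56 to 39.6 ± 0.71 (adjusted p = 0.00244).

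**Figure D2:**
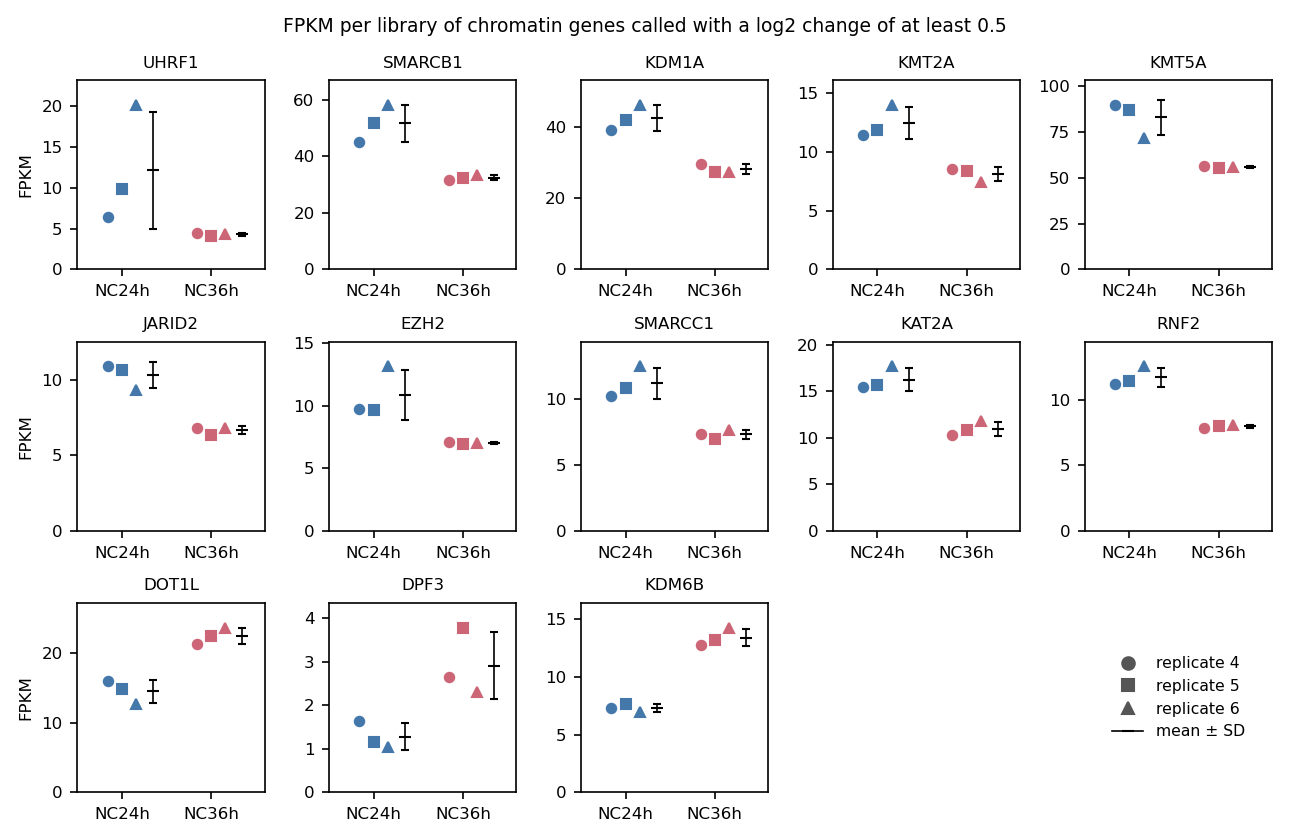
FPKM in each library of the 13 chromatin genes called with a log2 change of at least 0.5 in either direction; the vertical axes start at 0, symbols mark the replicate number, and the bar beside each group is its mean ± SD of 3 libraries. In all 13 panels the groups do not overlap, but the genes were picked by call and size of change, which favours groups that stand apart. Of all genes tested, 63.6% did not overlap. In UHRF1 the early libraries run from 6.45 to 20.2 while the later ones lie between 4.10 and 4.41.

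Of the 9 histone methyltransferases outside PRC2, DOT1L rose, 4 fell and 4 were not called. DOT1L, the methyltransferase of H3K79 in transcribed genes (chromosome 2, 76339452 to 76401974), had an FPKM of 16.1, 14.8 and 12.7 at NC24h and of 21.3, 22.6 and 23.7 at NC36h. The later libraries were all higher, and the rise was 0.60 (SE 0.10, adjusted p = 0.0032). KMT2A, the MLL enzyme that methylates H3K4 (chromosome 9, 45743566 to 45828559), had an FPKM of 11.4, 11.8 and 14.0 at NC24h and of 8.49, 8.33 and 7.41 at NC36h. It fell by 0.56 (SE 0.10, adjusted p = 0.00444), and the groups did not overlap.

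KMT5A, which places the monomethyl mark on H4K20 and is tied to mitosis (chromosome 14, 29523102 to 29543522), had an FPKM of 89.9, 87.0 and 71.8 at NC24h and of 56.6, 55.3 and 55.8 at NC36h. In contrast to EZH2 and KMT2A, replicate 6 was here the lowest early library, and it still lay above the later ones. KMT5A fell by 0.55 (SE 0.09, adjusted p = 0.00368). SETD2, which places the trimethyl mark on H3K36, and KMT2C, an enhancer H3K4 methyltransferase, fell by 0.36 and 0.25 on the deposited values and were not called after median-ratio scaling. KMT2C was also not called without NC24h replicate 5 or NC36h replicate 5 or 6 (adjusted p between 0.0585 and 0.0708). The H3K9 enzymes SETDB1 and EHMT2 (G9a), the lysine methyltransferase SETD7 and the arginine methyltransferase PRMT5 were not called. EHMT2 had the widest interval of them, -0.75 to -0.01, with an FPKM of 15.8 and 17.7 in NC24h replicates 4 and 5, 24.4 in replicate 6 and between 13.4 and 15.2 at NC36h, and it was called without NC24h replicate 4 (-0.51, adjusted p = 0.031) and lay at -0.20 without NC24h replicate 6 (adjusted p = 0.0868).

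Of the 6 demethylases, KDM6B rose, KDM1A, KDM4A and KDM6A fell, and KDM2A and KDM5B were not called. KDM6B (JMJD3), which removes the methyl mark that EZH2 sets (chromosome 12, 53087072 to 53108949), had an FPKM of 7.31, 7.65 and 6.99 at NC24h and of 12.8, 13.2 and 14.3 at NC36h. The later libraries were all far above the earlier ones, and replicates lay close together in either group. KDM6B rose by 0.79 on the log2 scale (SE 0.08, adjusted p = 0.000912), or 1.83-fold in mean FPKM, with the lowest adjusted p of the 46 genes. KDM6A (UTX), which removes the same mark, fell by 0.26 from a mean FPKM of 14.3 ± 0.83 (adjusted p = 0.0308). It was not called after median-ratio scaling (-0.09) or without NC24h replicate 4 or 5 or NC36h replicate 5 or 6 (adjusted p between 0.0633 and 0.107).

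KDM1A (LSD1), the amine oxidase that demethylates H3K4 (chromosome 6, 80903407 to 80971875), had an FPKM of 39.1, 42.0 and 46.3 at NC24h and of 29.7, 27.3 and 27.3 at NC36h. It fell by 0.58 (SE 0.08, adjusted p = 0.00212) with no overlap. KDM4A, a demethylase of H3K9 and H3K36, fell by 0.35 (adjusted p = 0.00625) and was not called after median-ratio scaling. The ratios of KDM6B to EZH2 and to KDM6A were chosen after the values were seen and are given as a description: KDM6B was 0.752, 0.793 and 0.532 times EZH2 at NC24h and 1.79, 1.91 and 2.05 times at NC36h, and between 0.503 and 0.516 times KDM6A at NC24h and between 1.03 and 1.30 times at NC36h. The order of KDM6B and EZH2, and of KDM6B and KDM6A, was thus the opposite in the 2 groups.

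Of the 4 acetyltransferases, KAT2A and EP300 fell. KAT2A (GCN5), the catalytic subunit of SAGA (chromosome 12, 20638493 to 20647464), had an FPKM of 15.4, 15.6 and 17.7 at NC24h and of 10.3, 10.8 and 11.8 at NC36h. KAT2B (PCAF), its paralogue and a coactivator of MYOD, had an FPKM of 19.6, 18.1 and 17.0 at NC24h and of 20.7, 21.6 and 18.0 at NC36h. KAT2A fell by 0.53 (SE 0.08, adjusted p = 0.00331) with groups that stood apart, while the groups of KAT2B overlapped with a change of 0.13 (95% interval -0.08 to 0.35, adjusted p = 0.251). After median-ratio scaling KAT2B was called higher (0.30). The ratio of KAT2B to KAT2A was 1.27, 1.16 and 0.962 at NC24h and 2.02, 1.99 and 1.53 at NC36h, with no overlap and a mean log2 difference of 0.71 (exact permutation p = 0.1, the smallest possible).

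EP300 (p300) fell by 0.19 from a mean FPKM of 25.9 ± 0.54, a call lost after median-ratio scaling and on leaving out each library other than NC24h replicate 6 (adjusted p between 0.0592 and 0.0876), and its paralogue CREBBP was not called (-0.12, adjusted p = 0.283). Of the deacetylases tested, HDAC2 fell by 0.34 from a mean FPKM of 55.8 ± 1.09 to 44.0 ± 1.5 (adjusted p = 0.00377), a call not made after median-ratio scaling (-0.16). HDAC3 and the NAD-dependent SIRT1 were not called, with log2 changes of -0.14 and 0.04.

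**Figure D3:**
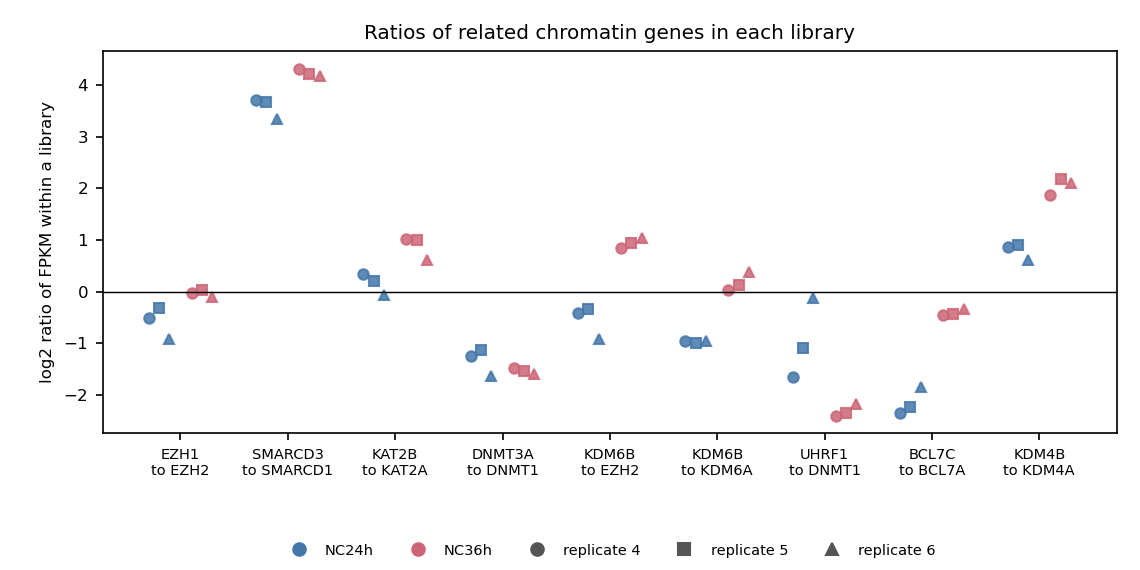
Log2 ratio of the FPKM of related chromatin genes within each library, in the 3 NC24h and the 3 NC36h libraries; symbols mark the replicate number, and 0 is an equal level per length. The groups overlap in DNMT3A to DNMT1 and in no other ratio shown, and the last 5 ratios were chosen after the values were seen.

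Of the DNA methylation genes, UHRF1 fell and DNMT1 and DNMT3A were not called. UHRF1, which brings DNMT1 to newly replicated DNA (chromosome 2, 73898061 to 73937727), had an FPKM of 6.45, 9.81 and 20.2 at NC24h and of 4.41, 4.10 and 4.33 at NC36h. The later libraries were close together, whereas the early ones were spread widely, with replicate 6 the highest. UHRF1 fell by 1.18 (SE 0.35, adjusted p = 0.028). Without NC24h replicate 6 it fell by 0.76 (adjusted p = 0.00905), and without NC24h replicate 5 or any of the NC36h libraries the adjusted p lay between 0.059 and 0.0808.

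DNMT1, the maintenance methyltransferase, had an FPKM of 20.2, 20.8 and 22.1 at NC24h and of 23.4, 20.8 and 19.6 at NC36h. DNMT3A, which sets new methylation, had an FPKM of 8.50, 9.43 and 7.16 at NC24h and of 8.41, 7.20 and 6.47 at NC36h. The groups of both genes overlapped, with log2 changes of 0.01 (95% interval -0.18 to 0.21) and -0.16 (-0.47 to 0.14). The ratio of DNMT3A to DNMT1 was 0.420, 0.454 and 0.324 at NC24h and 0.359, 0.346 and 0.330 at NC36h, with a mean log2 difference of -0.20 and overlapping groups (exact permutation p = 0.4). Without NC24h replicate 5 the difference was -0.10 and without NC24h replicate 6 it was -0.34. UHRF1 was 0.318, 0.472 and 0.912 times DNMT1 at NC24h and between 0.189 and 0.221 times at NC36h, a ratio chosen after the values were seen.

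Most cell cycle markers also fell between NC24h and NC36h. The 11 proliferation markers with a row, among them TOP2A, CDK1 and several MCM helicase subunits, summed to 67.3, 89.3 and 173 FPKM in NC24h replicates 4, 5 and 6 and to 31.6, 27.8 and 35.4 at NC36h, and 7 of the 10 tested fell. Of the MCM genes MCM3 fell, while MCM2, MCM4 and MCM5 were not called and their groups overlapped (adjusted p = 0.26, 0.165 and 0.327). Differentiation markers ran the other way: 6 genes such as ACTA1 and MYH3 summed to 3489, 2725 and 991 FPKM at NC24h and to between 8538 and 10050 at NC36h, and all 6 rose. NC24h replicate 6 therefore had the highest proliferation markers and the lowest muscle markers of all 6 libraries. It was the highest early library in 16 of the 23 chromatin genes that fell (69.6%, against 67.0% of all genes that fell) and the lowest in all 5 that rose (58.9% of all genes that rose). In 5 of the 23 falls, JARID2 and KMT5A among them, NC24h replicate 6 was the lowest early library (21.7%, against 18.7% of all genes that fell). Without it, 29 of the 46 chromatin genes were called, the same 28 and CBX2, against 52.2% of all genes. Fibroblast markers moved in both directions: of the 6 tested, DCN fell from a mean FPKM of 18.8 ± 0.26 to 6.12 ± 0.92, LUM and COL1A2 fell by 1.19 and 0.62, and COL3A1 and POSTN rose by 0.88 and 0.47. The 7 fibroblast markers with a row summed to between 932 and 1003 FPKM at NC24h and between 827 and 1033 at NC36h. Most of the sum was COL1A2, with a mean FPKM of 693 and 450, and COL3A1, with 241 and 443, which moved in opposite directions. FAP was not called, and PDGFRA, with a mean of 0.49 and 0.09, was not tested. The part of proliferating cells or of fibroblasts in the chromatin changes was not tested.

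**Figure D4:**
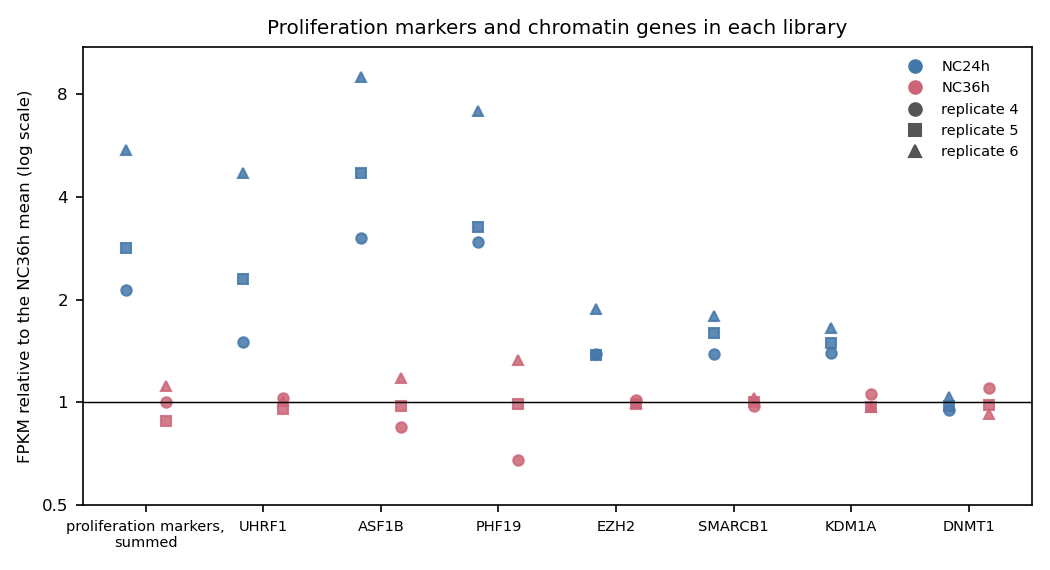
FPKM relative to the mean of the 3 NC36h libraries, on a log scale, for the sum of 11 proliferation markers and for 7 chromatin genes in each library; symbols mark the replicate number and the line at 1 is the NC36h mean. In NC24h the sum, UHRF1, ASF1B and PHF19 are highest in replicate 6 and lowest in replicate 4, EZH2, SMARCB1 and KDM1A span a narrower range above the line, and DNMT1 lies near the line in both groups. Each gene shown is highest in replicate 6 at NC24h, and genes that fell but were lowest there, such as JARID2 and KMT5A, are not shown.

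A wider set of 158 chromatin genes outside the 59 was examined by list. Of these, 131 had a row and 128 were tested, and 63 were called (49.2%, near the 50.9% of all genes), 16 higher and 47 lower. After median-ratio scaling 31 were called higher and 29 lower, and with both scalings 16 were higher and 29 lower. These counts and those by list stand beside 16.5% of all genes that rose and 34.4% that fell on the deposited values. After median-ratio scaling the shares of all genes were 23.9% higher and 22.3% lower. Values for the genes with the largest changes in each list follow, as log2 changes on the deposited values.

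Among 18 further Polycomb genes 1 rose and 7 fell, and after median-ratio scaling 2 were higher and 5 lower. PHF19, an accessory subunit that recruits PRC2, fell by 1.47 from an FPKM of 3.63, 4.01 and 8.81 to 0.832, 1.22 and 1.64 (adjusted p = 0.0077), and BCOR, a corepressor of a variant PRC1, fell by 0.87 from a mean FPKM of 67.8 ± 6.63 to 36.5 ± 1.95 (adjusted p = 0.000968). The calls of PHF19 and BCOR were made with both scalings.

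Among 10 further SWI/SNF subunits 2 rose and 5 fell, and after median-ratio scaling 2 were higher and 4 lower. BCL7A fell by 1.07, from a mean FPKM of 72.9 ± 3.94 to 34.1 ± 1.12 (adjusted p = 0.000586), while its paralogue BCL7C rose by 0.61, from 16.6 ± 2.26 to 25.7 ± 1.79 (adjusted p = 0.00446). The ratio of BCL7C to BCL7A, chosen after the values were seen, was between 0.197 and 0.279 at NC24h and between 0.731 and 0.787 at NC36h. ACTL6A, the BAF53A subunit of proliferating cells, fell by 0.68 (adjusted p = 0.00114). BICRA, a subunit of the non-canonical form of the complex, rose by 0.61 (adjusted p = 0.0137; without NC36h replicate 5, 0.0545).

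Of 19 remodellers of the ISWI, CHD and INO80 families, RUVBL2 rose by 0.32 and 8 fell, led by BAZ2A (-0.63) and the ATPase INO80 (-0.57); after median-ratio scaling 2 were higher and 6 lower. Of 25 further methyltransferase genes, 10 fell, led by SETD4 (-0.84) and SMYD3 (-0.47), and 1 rose: SMYD1, a methyltransferase of striated muscle that acts on myosin assembly, from an FPKM of 123, 109 and 67.8 to 292, 239 and 170. After median-ratio scaling the balance of these 25 turned, with 6 called higher and 4 lower. That of all genes turned too, to 23.9% higher and 22.3% lower. SMYD1 rose by 1.22 (SE 0.27, adjusted p = 0.0101), with NC24h replicate 6 the lowest library. SMYD3 was not called after median-ratio scaling or without NC24h replicate 5 or NC36h replicate 4 or 6 (adjusted p between 0.0556 and 0.0644).

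Of the 10 further demethylases, 4 rose and 2 fell, and after median-ratio scaling 5 were higher and 2 lower. KDM4B rose by 0.87 from a mean FPKM of 32.8 ± 3.0 to 60.6 ± 3.36 (adjusted p = 0.000942), and KDM4C by 0.65 from 5.11 ± 0.35 to 8.62 ± 0.66 (adjusted p = 0.00204). Both remove methyl groups from H3K9 and H3K36, as KDM4A does. The ratio of KDM4B to KDM4A, chosen after the values were seen, was between 1.53 and 1.87 at NC24h and between 3.66 and 4.54 at NC36h. KDM3B and PHF8 fell by 0.46 and 0.43.

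Of 26 acetylation enzymes and readers, 6 rose and 9 fell on the deposited values, while 8 were higher and 5 lower after median-ratio scaling. MTA3, a subunit of the NuRD deacetylase complex, fell by 0.86 and the coactivator NCOA3 by 0.62. HDAC10, a deacetylase, rose by 0.49, a call lost without either of NC24h replicates 4 and 5 or NC36h replicates 5 and 6 (adjusted p between 0.0751 and 0.11). Of 10 further DNA methylation genes, 1 rose and 1 fell, and after median-ratio scaling 3 were higher and 0 lower. TET1, which oxidises methylated cytosine, rose by 0.61 from a mean FPKM of 3.17 ± 0.16 to 5.37 ± 0.15 (adjusted p = 0.00197), and TDG fell by 0.30, a call not made after median-ratio scaling or without NC24h replicate 4 or 5 or NC36h replicate 4 or 5 (adjusted p between 0.0773 and 0.113). Of 10 histone chaperones, 5 fell and 0 rose on the deposited values, while 3 were called higher and 3 lower after median-ratio scaling. ASF1B, which supplies histones during replication, fell by 1.64 from an FPKM of 3.15, 4.91 and 9.34 to 0.880, 1.01 and 1.23 (adjusted p = 0.00594), in the order of the proliferation markers at NC24h, and SSRP1, a subunit of FACT, fell by 0.44 (adjusted p = 0.00773).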

How the data were processed

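RNA-seq of PSCs with NC siRNA was analysed in 6 libraries, 3 at 24 h and 3 at the later time. Per the paper, paired-end reads were mapped to Sscrofa11.1 with HISAT2, assembled with StringTie and counted with HTSeq; the submitters' processing notes name TopHat2, Cufflinks and HTSeq. The authors deposited FPKM values per gene and library, with none pooled. Strandedness and the handling of reads shared between paralogues or overlapping genes are not given in the sources used here, so genes with near-identical copies are uncertain.

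Symbols were paired with 11804 of 25322 Ensembl identifiers. Whole fragments were recovered from the FPKM steps for all 19543 genes above 0 in at least 3 libraries (within 0.05 of a whole number). Genes whose mean FPKM reached 1 entered a limma model (version 3.58.1, R 4.3.3) of log2(FPKM + 1) with trended eBayes, and two-sided p-values were adjusted by Benjamini-Hochberg over all 14060 of them (threshold 0.05). A change on this scale understates that of low genes. FPKM is no count, so the fit of recovered fragments (limma voom) was an alternative. Ratios were compared by exact permutation. The fit was also run on simulated data with few changed genes, as many up as down, and no shift in scale between libraries. That setting differs from these data, so the run does not bear on the calls that depend on scaling.

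The chromatin genes and lists were chosen with earlier results of these data known. Values of every library are given for genes called with a log2 change of at least 0.5 and for both genes of each planned ratio, and of other lists up to 2 called genes each way with the largest change. Some genes under this rule are not reported here. Replicate numbers were not used as pairs in the main fit. Deviations from the group means correlated at 0.15, -0.02 and 0.18 for numbers 4, 5 and 6, and between -0.20 and 0.10 for unlike numbers. With 3 libraries per group these values cannot tell whether the numbers pair the libraries. Alternatives were 2 pseudocounts, 2 filters, 2 scalings, no trend, voom, the replicate block and leaving out each library. Coordinates were taken from RefSeq (Sscrofa11.1).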

Additional observations from a re-analysis of the deposited data

How the results depend on the processing

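With 3 libraries per group an exact test of a ratio cannot go below p = 0.1, and the smallest falls rest on how libraries are scaled. Called chromatin genes numbered 28 on the deposited values, 19 after median-ratio scaling (16 of them shared), 21 after quantile normalization, 27 without a filter, 27 at a mean FPKM of at least 5, and 28 without trend, with voom and with pseudocounts of 0.1 and 0.01. With the replicate number as a block 27 were called, EP300 being lost, and 7034 of all genes against 7156. Leaving out a library in turn gave 21 to 29 chromatin genes and 4889 to 7336 genes in all. The lowest count of chromatin genes, 21, came without NC36h replicate 5. No called gene changed direction. Reversed signs were seen among genes that were not called. After median-ratio scaling they were EZH1 (0.10), SMARCC2 (0.14), SETDB1 (0.14), PRMT5 (0.16), KDM2A (0.0479), CREBBP (0.0484) and HDAC3 (0.0293). After quantile normalization they were EZH1 (0.13), SMARCC2 (0.18), SETDB1 (0.18), PRMT5 (0.0543) and DNMT3A (0.0165). Leaving out a library gave ranges across 0 for CBX2 (-0.0520 to 0.32), SMARCA4 (-0.0062 to 0.0693), SMARCC2 (-0.0621 to 0.0766), SETDB1 (-0.0689 to 0.0543), SETD7 (-0.0201 to 0.15), PRMT5 (-0.12 to 0.0596), KDM5B (-0.0022 to 0.13), SIRT1 (-0.0360 to 0.15) and DNMT1 (-0.0550 to 0.0667). The ratios kept their direction, with log2 differences of 0.38 to 0.68 for EZH1 to EZH2, 0.55 to 0.73 for SMARCD3 to SMARCD1, 0.60 to 0.84 for KAT2B to KAT2A and -0.34 to -0.0959 for DNMT3A to DNMT1 when a library was left out. The ratio of SMARCA2 to SMARCA4 was not run, since no row was paired with SMARCA2. The cause of these shifts was not tested.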
